A study of Mus musculus with 12 samples.

Results

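Zpld1 and Tnni3 are the 2 genes described here, out of 35856 genes listed in either of the 2 deposited tables. They were chosen from measured values, as the largest falls besides Cox4i2 in cumulus cells of Sphk1/2gc-/- mice, so their cumulus values are given as a description without a test. Their rows were found by Ensembl identifier in the GENCODE M21 annotation (ENSMUSG00000064310 for Zpld1 and ENSMUSG00000035458 for Tnni3), and each table held 1 row of each gene.

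RNA was sequenced from mural granulosa cells (MGCs), the granulosa cells at the follicle wall, and from cumulus cells, which surround the oocyte. Immature females were primed with eCG to grow their follicles, given hCG in place of luteinizing hormone, and their cells were collected 2 h post-hCG. The controls were WT mice of the C57/BL6 strain, and the other genotype was Sphk1-/-; Sphk2 fl/fl; Fshr-Cre, called Sphk1/2gc-/-, in which, by design, Sphk1 is null in every cell of the animal and Sphk2 is deleted where the Fshr promoter drives Cre. Each genotype had 3 libraries in each cell type, 12 in all, and the sources used here do not say whether a library holds 1 animal or a pool. The p-values below therefore measure the spread between libraries, which may be technical. Values are FPKM, in which the fragments of a gene are divided by its exon length and by the library's total, and the steps in the values correspond to 16100315 to 19761581 reads per library.

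Tnni3 encodes cardiac troponin I, the inhibitory subunit of the troponin complex. Troponin sits with tropomyosin on actin filaments of striated muscle, where troponin C binds calcium, troponin T anchors the complex to tropomyosin and troponin I holds the filament off until calcium rises, a function tuned by protein kinase A. Zpld1 encodes a membrane protein with a zona pellucida (ZP) domain, a module by which extracellular proteins polymerise into filaments. ZP domains occur in the egg coat proteins, in the tectorins of the inner ear and in uromodulin, and such proteins are commonly released from the membrane by proprotein convertases. ZPLD1 itself is known from the cupula, the gelatinous cap of the inner ear.

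Zpld1 lies on the minus strand of chromosome 16, at chr16:55225175-55297986 of GRCm38, with 13 exon blocks that sum to 2697 bases. Tnni3 lies on the minus strand of chromosome 7, at chr7:4518305-4524229, with 8 exon blocks that sum to 2063 bases. No exon of another gene overlapped those of Zpld1, while 86 bases of the farthest upstream exon of Tnni3 were shared with Dnaaf3. The libraries were made with a kit that does not mark the strand, so that reads of the 2 strands cannot be told apart.

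The stretches upstream of the RefSeq start of each gene are shown because both genes differed between genotypes in the same cells. They were copied from the RefSeq promoters of GRCm38.p6, kept to the part outside annotated exons, and read 5′ to 3′ on the minus strand. Both lie inside the annotated span of their gene, which runs upstream to position 55297986 for Zpld1 and 4524229 for Tnni3. They fall between annotated exons and would be intron in a transcript that starts farther upstream. The Zpld1 stretch is chr16:55283284-55283487, 47 to 250 bases before the start, and the Tnni3 stretch is chr7:4522529-4522694, 1 to 166 bases before the start. Capitals mark the match to the AP-1 letters TGANTCA.
Zpld1: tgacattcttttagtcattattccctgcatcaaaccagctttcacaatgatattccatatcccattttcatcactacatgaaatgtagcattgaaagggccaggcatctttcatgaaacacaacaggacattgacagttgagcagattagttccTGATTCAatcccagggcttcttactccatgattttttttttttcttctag
Tnni3: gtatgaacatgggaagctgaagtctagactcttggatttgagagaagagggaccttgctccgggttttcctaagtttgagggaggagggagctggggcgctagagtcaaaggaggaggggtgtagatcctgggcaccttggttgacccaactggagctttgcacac

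Of 6 motifs looked for on both strands in the 250 bases before the start, the AP-1 letters were in Zpld1, 96 to 90 bases before its start, and in 6.75% of all 32851 promoters. They were not in Tnni3. The other motifs were found in neither gene. They were the cAMP response half-site TGACG (17.8% of promoters), the SF1 and LRH1 letters AAGGTCA (4.08%), GATAA for GATA factors (22.6%), CATTCC for TEAD factors (12.6%) and TGTGGT for RUNX factors (14.0%). The 250 bases held 40.4% G and C in Zpld1 and 53.6% in Tnni3, beside a median of 52.4% over all promoters. The 2 windows thus had none of these letters in common. RefSeq starts matched 1 of 2 GENCODE transcripts of Zpld1 and 1 of 8 of Tnni3, and which start the cells used was not measured.

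Before the members, the labels were checked against the RNA. Sphk1 and Sphk2 did not separate the genotypes. Sphk2 lay at 0.403 to 0.602 FPKM in WT cumulus libraries and at 0.434 to 0.752 FPKM in those labelled Sphk1/2gc-/-. In MGCs it lay at 5.18 to 5.86 and 4.51 to 6.29 FPKM. Sphk1 was at 0.0699 to 0.0954 FPKM in WT cumulus libraries and at 0.0778 to 0.557 FPKM in those labelled Sphk1/2gc-/-, and in MGCs at 0.460 to 1.88 and 0.104 to 0.557 FPKM. In the cumulus libraries the values rest on 6 to 51 reads of Sphk1 and 27 to 60 reads of Sphk2. The paper's conditional allele targets only some exons of Sphk2, and FPKM of a whole gene does not resolve single exons. For SphK2 protein the paper reports efficient depletion in granulosa cells, by immunofluorescence and western blotting. The genotype below is therefore that of the label. Of the cumulus cell markers, 3 went against the cell type labels: Amh was at 0.102 to 2.16 FPKM in the 6 libraries labelled cumulus and at 87.3 to 226 FPKM in the MGC libraries, Slc38a3 at 0.341 to 3.23 and 13.9 to 41.6 FPKM, and Npr2 at 17.0 to 20.7 and 60.9 to 87.0 FPKM. The mural markers Lhcgr and Cyp11a1 were higher in the MGC libraries, with 210 to 565 and 58.2 to 520 FPKM against 1.93 to 18.7 and 0.608 to 16.3 FPKM. The cell types are named as labelled. Of single libraries, WT cumulus replicate 3 had 5686 genes at 1 read where the other cumulus libraries had 1557 to 1798. Sphk1/2gc-/- MGC replicate 3 stood apart too: its correlation with any other MGC library was at most 0.939, while each of the others reached 0.969 or more with some library.

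**Figure D1:**
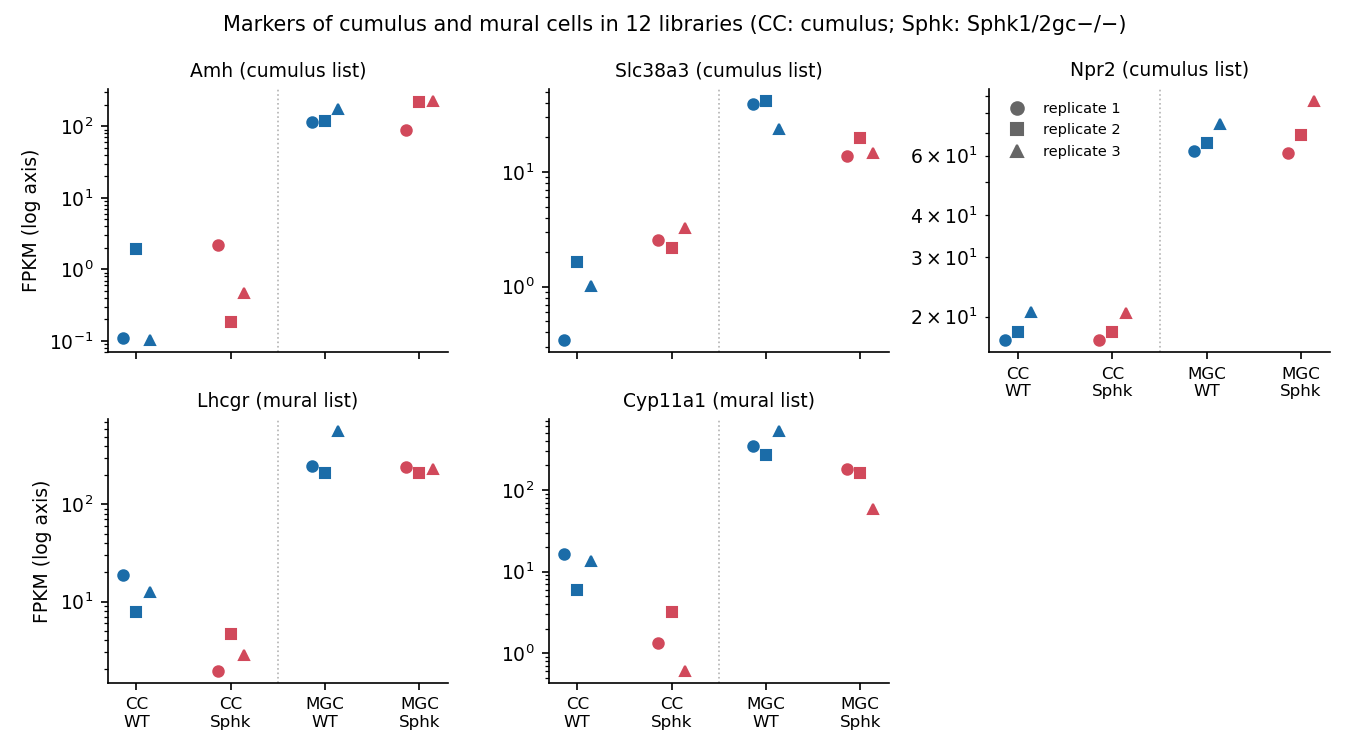
Levels of 3 cumulus markers and 2 mural markers in the 12 libraries (FPKM, log axis), with symbols for the replicate number and colours for the genotype (blue for WT, red for Sphk1/2gc-/-). Amh, Slc38a3 and Npr2 lay higher in all 6 MGC libraries than in any cumulus library, and Lhcgr and Cyp11a1 did so too.

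Zpld1 was more than 10-fold less abundant in Sphk1/2gc-/- than in WT cumulus cells. In WT cumulus libraries 1 to 3 it was at 85.2, 58.8 and 114 FPKM (3701, 2852 and 5394 reads). In the Sphk1/2gc-/- cumulus libraries it was at 11.7, 8.11 and 4.39 FPKM (595, 432 and 227 reads). All 3 Sphk1/2gc-/- libraries lay far below all 3 WT libraries. The means were 86.0 ± 27.5 and 8.07 ± 3.66 FPKM (SD, n = 3), a ratio of 10.7, and the difference of the mean log2(FPKM + 1) was −3.30 (SE 0.340). The transcript was lower but not absent: even the lowest library had 227 reads, for which the exact Poisson 95% interval was 198 to 259. Such intervals cover counting error only, which here was far smaller than the spread between libraries (SD 0.47 in WT and 0.62 in Sphk1/2gc-/- on the log2 scale).

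Tnni3 was among the most abundant transcripts of WT cumulus cells and was lower by a similar factor in Sphk1/2gc-/- cumulus cells. The WT libraries were at 556, 463 and 434 FPKM (18461, 17155 and 15725 reads), ranks 94, 117 and 126 of the 33137 listed genes. The Sphk1/2gc-/- libraries were at 59.4, 48.1 and 57.9 FPKM (2309, 1962 and 2292 reads), ranks 906, 1099 and 908. The libraries of each genotype lay close together, with a coefficient of variation of 13.2% in WT and 11.1% in Sphk1/2gc-/-. The means were 484 ± 63.7 and 55.2 ± 6.14 FPKM (SD, n = 3), a ratio of 8.78, and the log2 difference was −3.11 (SE 0.162). For Zpld1 the coefficients of variation were 32.0% and 45.4%, so that a fold of about the same size rested on a wider spread. In bulk RNA, fewer cells of a type and less RNA per cell cannot be told apart.

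**Figure D2:**
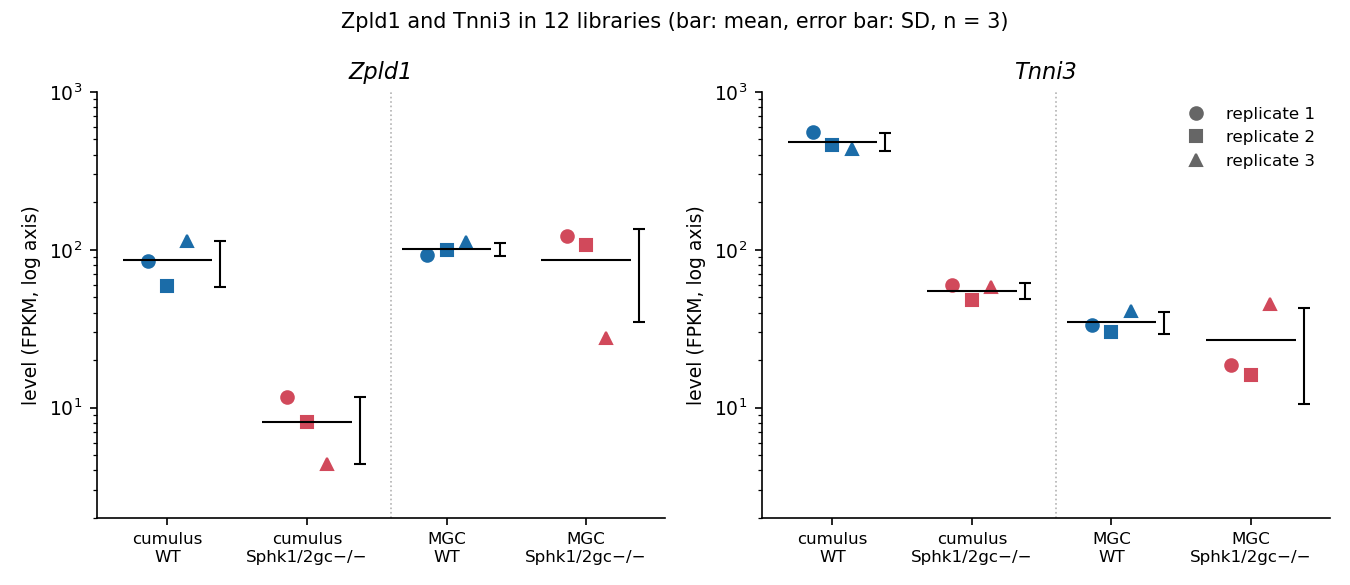
Levels of Zpld1 and Tnni3 in each library (FPKM, log axis) by cell type and genotype, with a bar at the mean of 3 libraries and an error bar of 1 SD beside it. Both genes were lower in all 3 Sphk1/2gc-/- cumulus libraries than in any WT cumulus library, while the genotypes overlapped in MGCs.

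Among the 5259 cumulus genes that averaged 5 FPKM or more over all 6 libraries, Zpld1 and Tnni3 ranked 2 and 3 by the fall in log2(FPKM + 1). Cox4i2, a subunit isoform of cytochrome c oxidase, came just before them (68.6 ± 21.2 to 5.08 ± 0.115 FPKM, a log2 difference of −3.48). Aldh1a7, an aldehyde dehydrogenase, came just after (19.8 ± 1.92 to 1.83 ± 0.527 FPKM, −2.89), followed by the cystatin family gene Cst8 (23.6 ± 3.27 to 3.12 ± 1.48 FPKM, −2.64). In the whole table, 470 of 12205 genes tested (3.85%) were called lower and 511 (4.19%) higher, a call being a limma adjusted p of 0.05 or less and at least a 2-fold change on log2(FPKM + 1). The pseudocount of 1 FPKM holds down the fitted change of genes near or below 1 FPKM, so that their ratio of mean FPKM can be larger. The order of the ranks depends on it. By the ratio of mean FPKM, WT over Sphk1/2gc-/-, Aldh1a7 (10.9) lay above Zpld1 (10.7) and Tnni3 (8.78), and the mitochondrial gene mt-Nd3 (8.75) was close to Tnni3. As the members were picked from this contrast, nothing is read from their place in it.

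In MGCs neither gene differed between genotypes by the test. In WT MGCs Zpld1 was at 92.2, 100.1 and 111 FPKM. The Sphk1/2gc-/- MGC libraries gave 122, 107 and 27.7 FPKM. Sphk1/2gc-/- replicates 1 and 2 lay among or above the WT libraries and replicate 3 lay below all of them. The means were 101 ± 9.58 and 85.5 ± 50.7 FPKM (SD, n = 3), and the log2 fold change was −0.49 (SE 0.526, 95% interval −1.74 to 0.76, limma adjusted p = 0.823). Without Sphk1/2gc-/- replicate 3 the sign turned, and the value was 0.18 (SE 0.117, limma adjusted p = 0.432).

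Tnni3 in WT MGCs was at 33.1, 30.0 and 41.0 FPKM. In Sphk1/2gc-/- MGCs it was at 18.5, 16.1 and 45.2 FPKM. Here too replicates 1 and 2 of Sphk1/2gc-/- lay together, below the WT libraries, and replicate 3 lay on the other side, above them. The means were 34.7 ± 5.66 and 26.6 ± 16.2 FPKM (SD, n = 3), and the log2 fold change was −0.51 (SE 0.372, 95% interval −1.39 to 0.37, limma adjusted p = 0.734). Without Sphk1/2gc-/- replicate 3 it was −0.96 (SE 0.151, limma adjusted p = 0.0513), and without replicate 3 of both genotypes it was −0.83 (SE 0.0930, limma adjusted p = 0.0125). The lower level of Tnni3 in MGCs thus passed the adjusted p in the 4 libraries of replicates 1 and 2 and missed it in all 6. In the fit of those 4 libraries 2486 of 15433 genes passed the adjusted p, beside 6 of 15279 in all 6. In an exact permutation test over the 6 libraries, two-sided, p was 0.90 for Zpld1 and 0.40 for Tnni3, where 0.10 is the smallest p that 3 against 3 can give.

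Few genes of the MGC table were called at all: 5 of 15279 tested (0.0327%) lower and 1 (0.00654%) higher, and 1 lower and 2 higher in the fit blocked on replicate number. That count depended on 1 library: without Sphk1/2gc-/- replicate 3 there were 54 called lower and 116 higher, and without replicate 3 of both genotypes 286 and 191. The intervals above do not reach the cumulus differences (−3.30 and −3.11). Those differences are the values by which the genes were chosen, so nothing is read from this comparison. A 2-fold fall of each gene lies within the MGC intervals and is not excluded. Whether the genotype acted differently in the 2 cell types was not tested, since the cumulus contrast had chosen the genes.

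**Figure D3:**
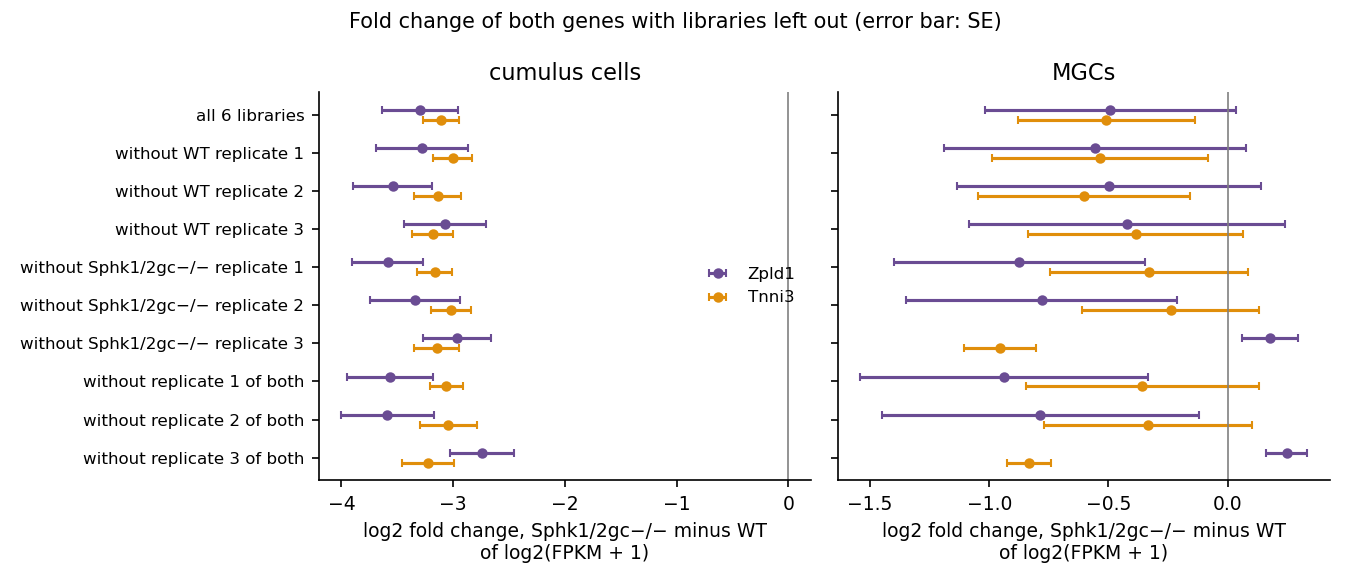
Log2 fold changes of Zpld1 (purple) and Tnni3 (orange), Sphk1/2gc-/- minus WT on log2(FPKM + 1), with error bars of 1 SE, for all 6 libraries of a cell type and with libraries left out. In cumulus cells every value lay between −3.59 and −2.74, and in MGCs leaving out Sphk1/2gc-/- replicate 3 moved Zpld1 above 0 and Tnni3 further below 0.

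In Sphk1/2gc-/- MGC replicate 3, other genes stood apart as well. Runx1, a transcription factor of granulosa cells after the ovulatory signal, was at 4.89 FPKM there and at 27.2 to 51.0 FPKM in the other 5 MGC libraries, and the progesterone receptor gene Pgr at 16.2 against 98.8 to 139 FPKM. Inhbb, which encodes an activin subunit, was at 1351 FPKM against 171 to 416 FPKM, and Foxl2, a granulosa cell factor, at 55.9 against 14.8 to 22.3 FPKM. The 4 erythroid markers summed to 30.2 FPKM in the lowest Sphk1/2gc-/- MGC library and to 258 FPKM or more in WT. The part of this library's composition in the values of Zpld1 and Tnni3 was not tested.

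Over the 4 groups the genes had different orders of level. Zpld1 was highest in WT MGCs (101 FPKM), then in WT cumulus cells (86.0) and Sphk1/2gc-/- MGCs (85.5), and these 3 groups overlapped. Sphk1/2gc-/- cumulus cells (8.07 FPKM) lay apart from all of them, 10.6-fold below the MGCs of that genotype. Tnni3 was highest in WT cumulus cells (484 FPKM), 13.9-fold above WT MGCs, then in Sphk1/2gc-/- cumulus cells (55.2), WT MGCs (34.7) and Sphk1/2gc-/- MGCs (26.6). The 2 MGC groups overlapped, and no Sphk1/2gc-/- cumulus library reached down to the highest MGC library (48.1 against 45.2 FPKM). The ratio of the cumulus to the MGC mean of Tnni3 was 2.07 in Sphk1/2gc-/-. These ratios span 2 tables that are scaled library by library, and they are a description without a test. Zpld1 was thus a transcript of similar level in both WT cell types and Tnni3 one at a far higher level in WT cumulus cells.

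The other troponin genes were at far lower levels than Tnni3. It made up 99.3% to 99.5% of the summed FPKM of the 8 troponin genes in WT cumulus libraries, 92.9% to 95.5% in Sphk1/2gc-/- cumulus libraries and 88.4% to 95.5% in MGCs. Tnnt1, slow skeletal troponin T, was at 1.72, 2.02 and 1.58 FPKM in WT cumulus libraries and at 0.385, 0.551 and 0.213 FPKM in Sphk1/2gc-/- cumulus libraries (61, 80 and 61 against 16, 24 and 9 reads). It fell by 1.01 on the log2 scale (SE 0.151, limma adjusted p = 0.00406), close to the 2-fold limit with the pseudocount. The ratio of mean FPKM, WT over Sphk1/2gc-/-, was 4.62. Tnnc1, the calcium-binding subunit of cardiac and slow muscle, gave 0.955, 0.962 and 1.20 FPKM in the WT cumulus libraries. The Sphk1/2gc-/- cumulus libraries gave 2.04, 2.82 and 3.11 FPKM. It rose by 0.83 on the log2 scale (SE 0.160, limma adjusted p = 0.00975), under the 2-fold limit with the pseudocount, while the ratio of mean FPKM was 2.55. Of the 7 other troponin genes these 2 passed the filter in cumulus cells and 1 in MGCs (Tnnc1, log2 fold change −0.61, limma adjusted p = 0.547). Tnni1, Tnni2, Tnnt2, Tnnt3 and Tnnc2 were at 0.975 FPKM or less in every library of both cell types.

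Of the thin filament, on which troponin acts in muscle, a tropomyosin and 2 actin genes were higher in Sphk1/2gc-/- cumulus cells. Of 19 genes listed, 11 were tested there, 3 were called higher (beside 4.19% of all genes) and none lower, with a median log2 fold change of 0.56 beside −0.06 over all genes tested. Tpm1, a tropomyosin that many cell types use, rose from 25.6 ± 6.06 to 108 ± 20.6 FPKM (log2 fold change 2.04, SE 0.219, limma adjusted p = 0.00123). Actg1, cytoplasmic actin, rose from 296 ± 21.9 to 933 ± 452 FPKM (1.54, SE 0.318, limma adjusted p = 0.0125). Actc1, the cardiac actin gene, rose from 0.223 ± 0.128 to 4.18 ± 2.24 FPKM (1.97, SE 0.335, limma adjusted p = 0.00620). The 3 Tpm1 values of each genotype lay at 19.7 to 31.8 and 85.1 to 125 FPKM and did not overlap. The calls of Actg1 and Actc1 were lost in the 4 libraries left without replicate 2 of both genotypes and in those left without replicate 3. Tpm4, Tmod1 and Tmod3 passed the adjusted p upward with fitted changes under 2-fold. For Tmod1, at means of 0.0431 and 0.805 FPKM, this rests on the pseudocount. At any fold, 9.66% of all cumulus genes passed it upward and 12.7% downward, 22.3% in all. In MGCs none of the 14 thin filament genes tested was called and the median was −0.09.

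Genes of the cardiac sarcomere and of the calcium store gave no called gene. Of 25 sarcomere genes 2 were tested in cumulus cells, Mybpc3, cardiac myosin-binding protein C (2.54 ± 1.08 and 1.59 ± 1.10 FPKM, limma adjusted p = 0.336) and Myom1 (limma adjusted p = 0.297). Myh6, Myh7 and Ttn, which define striated muscle, were at 0.0628 FPKM or less in every cumulus library. The striated muscle markers summed to 0.0826 to 0.549 FPKM in WT cumulus libraries and to 1.76 to 6.06 FPKM in Sphk1/2gc-/- cumulus libraries, of which Actc1 was the part that was tested. Among 17 calcium store genes 5 were tested in cumulus cells. Atp2a2, the calcium pump SERCA2, was at 46.4 ± 4.46 and 58.4 ± 8.70 FPKM (limma adjusted p = 0.188), and its inhibitor Pln was at 0.0403 FPKM or less in every cumulus library. Itpr1, a calcium release channel, rose by 0.80 on the log2 scale (SE 0.219, limma adjusted p = 0.0342), under 2-fold with the pseudocount, while the ratio of mean FPKM was 2.66.

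Of protein kinase A, which phosphorylates troponin I in the heart, 2 of 4 regulatory subunit genes were called, in opposite directions. The list of 20 genes drawn up for this kinase also held other kinases and transcription factors. Of the 20 genes 18 were tested in cumulus cells, 3 were called higher and 1 lower (beside 4.19% and 3.85% of all genes), with a median of 0.29 beside −0.06 over all genes. Prkar2b, a regulatory subunit abundant in granulosa cells, fell from 192 ± 22.8 to 66.7 ± 5.80 FPKM (−1.50, SE 0.156, limma adjusted p = 0.00107). Prkar1b, another regulatory subunit, rose from 0.0730 to 0.269 FPKM in the WT libraries to 2.08 to 3.65 FPKM (1.64, SE 0.193, limma adjusted p = 0.00172). Creb3l1, a membrane-bound transcription factor, and Prkd1, a kinase that also acts on troponin I, were the others called higher (1.49 and 1.84), and Creb3l1 lost its call without replicate 2 or replicate 3 of both genotypes. The other regulatory subunit genes, Prkar1a and Prkar2a, had limma adjusted p of 0.883 and 0.412. The catalytic subunit genes Prkaca and Prkacb had limma adjusted p of 0.895 and 0.283. No gene of the 20 was called in MGCs.

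In the ZP domain family Zpld1 was the most abundant member in WT cumulus libraries and in every MGC library other than Sphk1/2gc-/- replicate 3, where Zp3 (31.1 FPKM) lay above it. Of 14 other genes 5 were tested in cumulus cells, 1 was called lower (beside 3.85% of all genes) and none higher, with a median of −0.40 beside −0.06 over all genes tested. Oit3, a secreted ZP domain protein, fell from 6.43 ± 2.07 to 2.30 ± 1.30 FPKM (−1.21, SE 0.294, limma adjusted p = 0.0228). That call was lost in 6 of the 9 fits with libraries left out (lowest and highest limma adjusted p 0.00438 and 0.169) and with the replicate number as a block (0.0574). Tgfbr3, the co-receptor betaglycan, rose from 7.01 ± 0.977 to 14.3 ± 3.32 FPKM (0.91, SE 0.194, limma adjusted p = 0.0139), a ratio of means of 2.03 and just under 2-fold on log2(FPKM + 1). Gp2, a ZP domain protein of the pancreas and gut, was at 0.339 to 1.14 FPKM (limma adjusted p = 0.705). Umod, Umodl1, Cuzd1, Dmbt1, Tecta, Tectb and Eng were at 0.247 FPKM or less in every cumulus library. In MGCs, where 9 were tested, none was called, with Oit3 at 4.72 to 10.2 FPKM in WT and 5.22 to 9.69 FPKM in Sphk1/2gc-/- (limma adjusted p = 0.867) and Eng, the TGF-beta co-receptor endoglin, at 3.03 to 4.15 and 1.46 to 2.55 FPKM (limma adjusted p = 0.454). Tgfbr3l, listed for MGCs only, was at 1.32 to 2.38 FPKM in WT and 0.867 to 3.08 FPKM in Sphk1/2gc-/- (limma adjusted p = 0.944).

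The egg coat genes of the family are expressed by the oocyte. Zp3 was at 1.92, 0.631 and 1.68 FPKM in WT cumulus libraries and at 0.361, 0.344 and 0.394 FPKM in Sphk1/2gc-/- cumulus libraries, a fall of 0.77 on the log2 scale (SE 0.221, limma adjusted p = 0.0391). The ratio of mean FPKM was 3.85, and the pseudocount kept the fitted change under 2-fold. Zp2 was at 0.265 to 0.684 and 0.0743 to 0.211 FPKM (limma adjusted p = 0.0932), and Zp1 was too low to be tested. Of 20 oocyte markers 7 were tested in cumulus cells, and 1 was called lower (beside 3.85% of all genes) and none higher. The 20 oocyte markers summed to 8.18 to 13.0 FPKM in WT and to 4.45 to 5.29 FPKM in Sphk1/2gc-/- cumulus libraries. In MGCs they summed to 53.4 to 145 and 40.8 to 167 FPKM. The oocyte markers were thus higher in the libraries labelled MGC, and their part in the values of Zpld1 was not tested. Across the MGC libraries Zp3 was highest (31.1 FPKM) in Sphk1/2gc-/- replicate 3, where Zpld1 was lowest.

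Of 6 proprotein convertases and related proteases that can cleave ZP domain proteins, 3 were tested in cumulus cells. Pcsk5 rose from 8.97 ± 0.965 to 20.8 ± 2.56 FPKM (1.13, SE 0.156, limma adjusted p = 0.00312; 0.0522 without replicate 2 of both genotypes). Furin was at 0.0882 FPKM or less in every cumulus library and at 9.78 to 14.9 FPKM in MGC libraries. Of the inner ear list, none of the genes other than Zpld1 passed the filter in cumulus cells, and their sum was 0.293 FPKM or less.

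**Figure D4:**
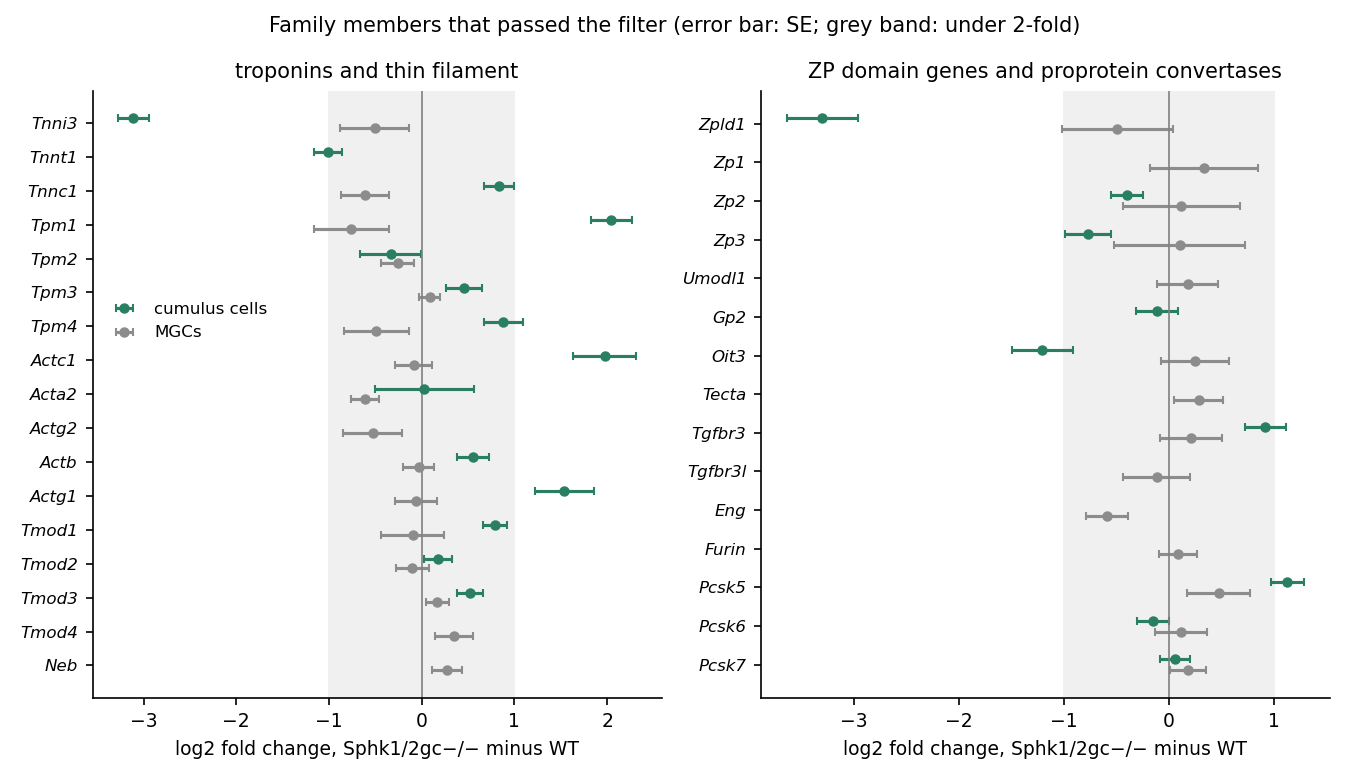
Log2 fold changes, Sphk1/2gc-/- minus WT, of the troponin and thin filament genes (left) and of the ZP domain genes and proprotein convertases (right) that passed the filter in a cell type, with error bars of 1 SE; the grey band marks changes under 2-fold. Tpm1, Actc1 and Actg1 lay above the band in cumulus cells while Tnni3 and Tnnt1 lay below it, and Zpld1 and Oit3 lay below it among the ZP domain genes.

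Among 25 transcription factors of granulosa cells and heart, 21 were tested in cumulus cells, with 2 called higher and 1 lower (beside 4.19% and 3.85% of all genes) and a median of 0.13 beside −0.06. Runx1 rose from 7.11 ± 0.722 to 34.0 ± 7.02 FPKM (2.09, SE 0.184, limma adjusted p = 0.000685) and Tead1 from 1.75 ± 0.293 to 5.40 ± 0.450 FPKM (1.22, SE 0.148, limma adjusted p = 0.00193). Nr5a2, the nuclear receptor LRH1, fell from 28.3 ± 3.72 to 9.44 ± 1.93 FPKM (−1.50, SE 0.188, limma adjusted p = 0.00217). Gata4 and Srf had limma adjusted p of 0.634 and 0.215. The heart factors Tbx5, Nkx2-5 and Hand2 were at 0.0484 FPKM or less in every cumulus library.

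Genes of granulosa cells, which include cumulus cells, and markers of other cells moved with the genotype in cumulus cells too. Of 10 granulosa cell genes 5 were called lower (beside 3.85% of all genes) and none higher. Those called included Hsd17b1 (1135 ± 61.0 to 263 ± 61.3 FPKM) and Cyp19a1, the aromatase gene (62.1 ± 19.6 to 11.3 ± 4.85 FPKM). Of 4 mural markers Lhcgr and Cyp11a1 were called lower, and neither was called without replicate 3 of both genotypes (limma adjusted p = 0.0882 and 0.0838). The theca markers summed to 25.8 to 57.6 FPKM in WT and 10.4 to 13.1 FPKM in Sphk1/2gc-/- cumulus libraries, with 2 of 3 tested called lower (Cyp17a1 and Aldh1a1, of which Cyp17a1 lost its call with the replicate block, limma adjusted p = 0.0815, and in 7 of 9 fits with libraries left out), and the erythroid markers to 4.37 to 26.8 and 0.300 to 1.78 FPKM, with 1 of 4 called lower. Leukocyte markers summed to 4.37 to 54.7 and 7.49 to 55.7 FPKM, with 1 called higher and 1 lower. The latter, S100a9, lost its call without Sphk1/2gc-/- replicate 3 and without replicate 2 or replicate 3 of both genotypes. Endothelial markers were at 0.919 FPKM or less in sum, and of 7 smooth muscle and pericyte markers only Acta2 was tested (limma adjusted p = 0.978). Over all 20 lists, 98 genes other than the members were tested in cumulus cells. Of these 25 (25.5%) were called, 10 higher and 15 lower, beside 8.04% of all genes. The lists were chosen with earlier results of these data known, so the 2 shares are a description. Without replicate 3 of both genotypes 15 of 97 were called, beside 662 of all 12220 genes tested. In MGCs none of 139 was called by limma, beside 0.0393% called of all genes. At an unadjusted limma p of 0.05 or less there were 17 of the 139, beside 1406 of all 15279 genes tested. Without Sphk1/2gc-/- replicate 3 the leukocyte markers Cd74, S100a8 and S100a9 were called in MGCs, 3 of 137 list genes beside 170 of all 15215. Without replicate 3 of both genotypes 7 of 138 list genes were called there, beside 477 of all 15433. The part of cell composition in the values of Zpld1 and Tnni3 was not tested.

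On their chromosomes the members had few expressed neighbours. No annotated gene lay within 100 kb of Zpld1. Within 100 kb of Tnni3 there were 13 annotated genes, 7 of them protein coding, of which 3 were tested in cumulus cells and 4 in MGCs. Tnnt1, described above, lies 1922 bases downstream of Tnni3 on the same strand (chr7:4504570-4516382) and was the neighbour called lower in cumulus cells. Rdh13, a retinol dehydrogenase gene, gave 3.28, 4.42 and 3.72 FPKM in the WT cumulus libraries. The Sphk1/2gc-/- cumulus libraries gave 9.72, 7.31 and 5.43 FPKM. It rose by 0.80 on the log2 scale (SE 0.208, limma adjusted p = 0.0295), under 2-fold on this scale. Ppp1r12c, a myosin phosphatase subunit gene, was at 1.39 ± 0.311 and 2.16 ± 0.749 FPKM (limma adjusted p = 0.212). Dnaaf3, which shares exon bases with Tnni3, was at 0.350 FPKM or less in cumulus libraries and at 0.319 to 0.821 FPKM in MGCs (limma adjusted p = 0.966), and Eps8l1 had a limma adjusted p of 0.438 in MGCs. No neighbour was called in MGCs.

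The genes with the pattern most like each member were found by Pearson's r of log2(FPKM + 1) over the 12 libraries, among 8472 genes listed in both tables that averaged 5 FPKM or more in any of the 4 groups. The values are a description, since the libraries fall into 4 groups and share depth and table. For Zpld1 they were Aldh1a1, a retinaldehyde dehydrogenase that is also on the theca list (r = 0.950), Slfn14 (0.926), Gla, the lysosomal alpha-galactosidase A (0.924), Jam2, a junctional adhesion molecule (0.910), and Cst8 (0.907). Aldh1a1 was at 30.3, 15.6 and 23.5 FPKM in the WT cumulus libraries. In those of Sphk1/2gc-/- it was at 5.23, 4.08 and 2.78 FPKM. In Sphk1/2gc-/- MGC replicate 3 it was at 15.0 FPKM beside 35.1 and 36.4 FPKM in the other 2 libraries, so that it was low there as Zpld1 was. Slfn14 was at 13.5 FPKM in that library beside 34.8 and 28.6 FPKM, and Cst8 at 18.0 beside 54.1 and 57.3 FPKM. Jam2 (43.6 beside 46.2 and 49.6 FPKM) and Gla (13.0 beside 18.2 and 16.4 FPKM) differed less there. Over the 6 MGC libraries alone, r with Zpld1 was 0.330 for Jam2, 0.634 for Gla, 0.834 for Aldh1a1, 0.863 for Cst8 and 0.970 for Slfn14.

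For Tnni3 they were Hmgn2, a nucleosome-binding protein gene (r = 0.982), the long non-coding RNA Eldr (0.979), Nap1l2, of the nucleosome assembly protein family (0.978), Dbi, which encodes the acyl-CoA-binding protein (0.978), and Hadh, an enzyme of mitochondrial fatty acid oxidation (0.978). Hmgn2 was at 400, 370 and 362 FPKM in WT cumulus libraries and 145, 129 and 118 FPKM in those of Sphk1/2gc-/-, and at 56.8 to 107 FPKM in MGCs. Hadh was at 45.9, 49.1 and 44.1 FPKM and then 23.0, 15.5 and 16.1 FPKM in cumulus cells. In Sphk1/2gc-/- MGCs Hadh was at 6.65, 7.14 and 14.3 FPKM, with replicate 3 the highest as for Tnni3. The 2 lists had no gene in common. Between Zpld1 and Tnni3 themselves r was 0.05 over the 12 libraries, 0.958 over the 6 cumulus libraries, where both were lower in Sphk1/2gc-/-, and −0.591 over the 6 MGC libraries.

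**Figure D5:**
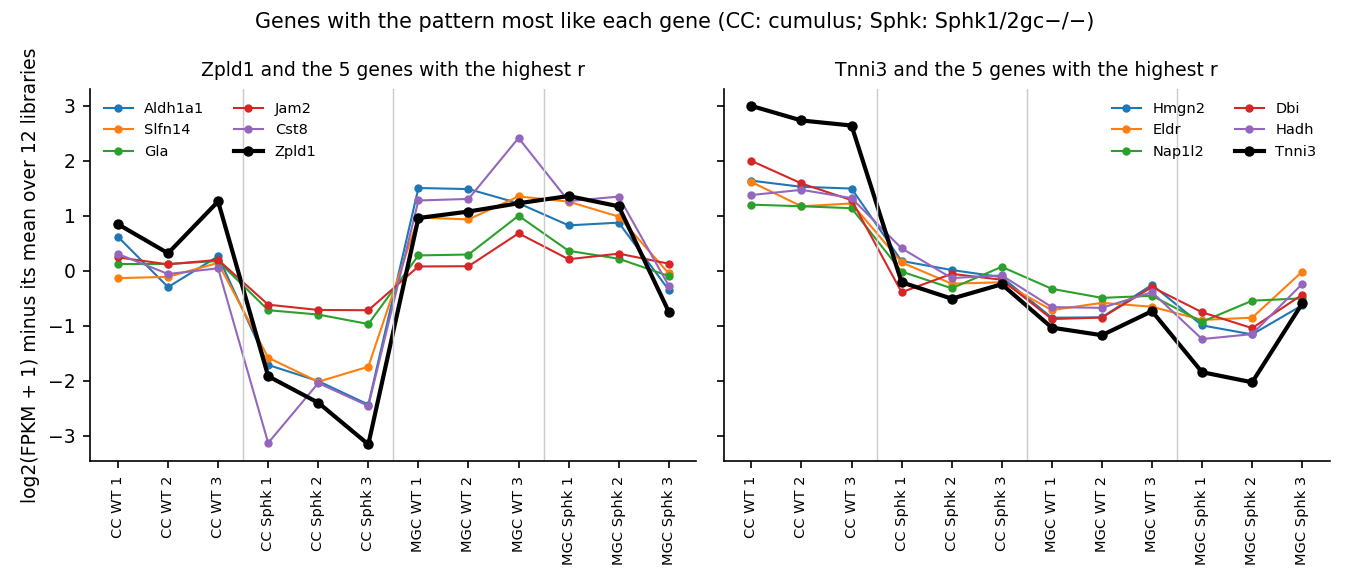
Log2(FPKM + 1) of Zpld1 (left) and Tnni3 (right), in black, and of the 5 genes with the highest r with each, as the difference from each gene's mean over the 12 libraries, which stand along the horizontal axis by group. Zpld1 and its 5 genes each had their lowest values in the 3 Sphk1/2gc-/- cumulus libraries, and the Tnni3 genes were high in WT cumulus libraries and lower in all other groups.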

How the data were processed

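RNA from MGCs and cumulus cells of WT and Sphk1/2gc-/- mice was sequenced by the authors 2 h post-hCG, with 3 libraries per group. The authors deposited FPKM values as separate tables of the 2 cell types. They list 29101 genes for MGCs and 33137 genes for cumulus cells, 26382 of them shared. The submitters' processing notes name HISAT2 and GRCm38. The counting tool and annotation are not given in the sources used here. Positions and symbols came from GENCODE M21, which lacks 64 and 66 of the genes. FPKM multiplied by exon length came out as whole multiples of 1 step in 88.1% to 90.7% of values above 0 in a library (tolerance 0.02 reads), which gave the reads. FPKM divides by the library's own total, so a few abundant transcripts can shift all others.

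Each table was fitted alone with limma 3.58.1 (trend) in R 4.3.3 on log2(FPKM + 1). Genes had to average 0.5 FPKM or more in either genotype. The pseudocount of 1 makes fold changes of low genes too small. A call needed an adjusted p (Benjamini-Hochberg) of at most 0.05 and a change of at least 2-fold. The code was tested on simulated data. The values of 1 marker gene are not reported here. The members and the gene lists were chosen with earlier results of these data known. The genes named were the members, all measured troponin and ZP domain genes, and part of the called and abundant genes of other lists. The tested neighbours within 100 kb, the 5 genes most like each member and the genes next in rank of fall were named too. A test for read counts had been foreseen, but the values are FPKM, so it was not run. Deviations from the genotype means correlated between same-numbered libraries at 0.220, 0.158 and 0.224 (MGCs) and at −0.148, −0.0511 and 0.115 (cumulus cells). All MGC values passed 0.1, the limit for treating the numbers as pairs, although the labels name no shared animal.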

Additional observations from a re-analysis of the deposited data

Results flagged for a closer look

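Among 112 genes tested in both cell types, 2 had all 3 Sphk1/2gc-/- libraries on one side of the WT libraries in cumulus cells and all 3 on the other side in MGCs, beside 233 of all 11097 genes tested in both (2.10%). The difference between the cell types was not tested for either. Itpr1, the calcium release channel, had a log2 fold change of 0.80 in cumulus cells (0.852 to 1.00 FPKM in WT, 1.37 to 3.20 FPKM in Sphk1/2gc-/-) and −0.66 in MGCs (10.9 to 14.1 and 7.00 to 8.52 FPKM, limma adjusted p = 0.257). Slc38a3, an amino acid transporter on the cumulus marker list, had 0.91 in cumulus cells (limma adjusted p = 0.0350) and −1.04 in MGCs (limma adjusted p = 0.270). Zpld1 and Tnni3 were not among them, since their genotypes overlapped in MGCs.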

How the results depend on the processing

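In cumulus cells the log2 difference of Zpld1 ranged from −3.45 to −3.21 and that of Tnni3 from −3.13 to −3.01 over 9 other settings of pseudocount, filter, scaling, trend and replicate block. With libraries left out they ranged from −3.59 to −2.74 (the latter without replicate 3) and from −3.22 to −3.01. In MGCs the log2 fold change of Zpld1 was −0.53 to −0.48 and that of Tnni3 −0.55 to −0.50 over the other settings (limma adjusted p 0.769 to 0.874 and 0.505 to 0.831); with the replicate block they were −0.49 and −0.51 (0.769 and 0.505). With libraries left out, Zpld1 ranged from −0.94 to 0.25, reversed without Sphk1/2gc-/- replicate 3 (0.18) and without replicate 3 of both genotypes (0.25). Tnni3 ranged from −0.96 to −0.24, with limma adjusted p of 0.0125 without replicate 3. The cause was not tested. The ratio of cumulus to MGC mean of Tnni3 in WT moved to 11.0 with libraries scaled to one FPKM sum. With libraries left out the ratios ranged from 0.712 to 0.984 (WT) and 0.0705 to 0.120 (Sphk1/2gc-/-) for Zpld1, and from 12.9 to 15.3 and 1.73 to 3.19 for Tnni3. The 25 called genes of the lists in cumulus cells were 15 to 28 with libraries left out, and the 0 in MGCs were 0 to 7. The called neighbour, Tnnt1, fell just under 2-fold with upper quartile scaling and with quantile normalisation, which left 0 calls, and calls were 0 to 1 with libraries left out and 3 within 500 kb. Over the whole cumulus table the 981 calls became 1674 with a pseudocount of 0.1 FPKM and 480 without replicate 2, and the 6 in MGCs became 477 without replicate 3 of both genotypes and 170 without Sphk1/2gc-/- replicate 3. The replicate block changed no call of the members, and of the called genes named here it ended those of Oit3 and Cyp17a1. Among the list genes, the calls of Oit3, Actg1, Creb3l1, Cyp17a1, S100a9 and Inhba were lost without a filter on low values (limma adjusted p 0.0921, 0.0637, 0.0536, 0.136, 0.0845 and 0.0530). A count test was not run, since the values are FPKM. With 3 libraries per group, the spread between libraries and not the read depth limits both members.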
